A study of Rattus norvegicus with 23 samples.

Results

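A set of 100 genes stood at least 2 times higher in repaired rat nerves on day 7 than in the same repair series on day 3 and than in any of 3 healthy tissues. They are 100 of the 32545 gene identifiers in the count table. The genes were chosen by their group mean level, as counts scaled to library size (CPM, the count divided by the library total and multiplied by 1e6). In both repair series the day 7 mean had to be at least 5 CPM, at least 2 times the day 3 mean of that series, and at least 2 times the mean of every healthy tissue. Of the 10851 identifiers at the day 7 minimum in both series, 756 also passed the healthy clause and 102 passed the day 3 clause as well. The rule leaves out 2 of these 102 by identifier. Day 7 against day 3 and day 7 against healthy tissue therefore describe how the genes were chosen, and no test is given for either.

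The 23 libraries came from adult female wild-type rats and fall into 7 groups. In the repaired animals the median nerve had been cut to leave a gap of 8 mm, and the series design describes a muscle-in-vein graft of 10 mm. In such a graft a segment of vein is packed with skeletal muscle fibres and sewn between the nerve ends. The groups were nerves labelled MIV on day 3 and day 7, whose treatment label names the repair and MIV (n = 3 each), and nerves labelled EV on day 3 and day 7, whose treatment label names only repair after the cut (n = 3 each). What EV stands for is not given in the labels. The other 3 groups, untreated and labelled day 0, were healthy tissue from the median nerve (n = 5), the adductor muscle (n = 3) and the epigastric vein (n = 3). Whether the libraries of a group are separate animals is not stated, and p-values cover only the spread between these libraries.

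After a peripheral nerve is cut, Schwann cells shed their myelin and turn to a repair state, and macrophages clear the debris of the cut axons. Fibroblasts and endothelial cells then build a tissue bridge with new matrix and vessels, along which Schwann cells and regrowing axons advance. A vein conduit guides this growth, and muscle fibres inside it offer their basal lamina as a scaffold. The early inflammatory phase and the later phase of cell growth and matrix deposition are known to use different genes.

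None of the 32545 identifiers could be paired with a gene symbol, so the 100 genes are described by level, tissue and library rather than by function, and the tissue labels could not be checked against marker genes. By rank, at most 2 identifiers are printed in each direction of a comparison. Others are named for a pattern between libraries or for a call under another setting.

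Library totals ran from 12504035 to 17314324 counts. Several libraries stood apart before any result was read. Replicates of a group correlated at 0.952 or more across genes in 6 groups, and at 0.874 to 0.952 in MIV day 7. The 100 genes with the highest level in healthy muscle took 15.9%, 10.5% and 22.95% of the counts in MIV day 7 replicates 1, 2 and 3, against 11.9%, 10.5% and 11.2% in the EV day 7 replicates and 58.6% to 59.5% in healthy muscle. EV day 3 replicate 1 also differed from the other EV day 3 libraries in the day 7 genes, as given next.

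Together the 100 genes took a small part of the RNA before day 7 and a larger part on day 7. They held 0.205% to 0.328% of the counts in healthy nerve, 0.0595% to 0.0863% in healthy muscle and 0.433% to 0.488% in healthy vein. On day 3 they held 0.429%, 0.430% and 0.465% in the MIV libraries, and 0.736%, 0.440% and 0.447% in the EV libraries. On day 7 they held 1.90%, 1.33% and 1.59% in the MIV libraries, and 1.92%, 1.84% and 2.19% in the EV libraries. Every day 7 library lay above every earlier and healthy library, EV day 3 replicate 1 was the highest of the day 3 libraries, and MIV day 7 replicate 2 the lowest of the day 7 libraries. The mean summed level on day 7 was 3.64 times that of day 3 in MIV and 3.67 times in EV. Over healthy nerve the summed level was 6.27 times as high in MIV on day 7 and 7.73 times as high in EV, and over healthy muscle 22.2 and 27.4 times. The ratios over muscle are raised by the 58.6% to 59.5% of its counts that the top muscle genes took. In these bulk samples, more cells of a type and more RNA per cell cannot be told apart.

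**Figure D1:**
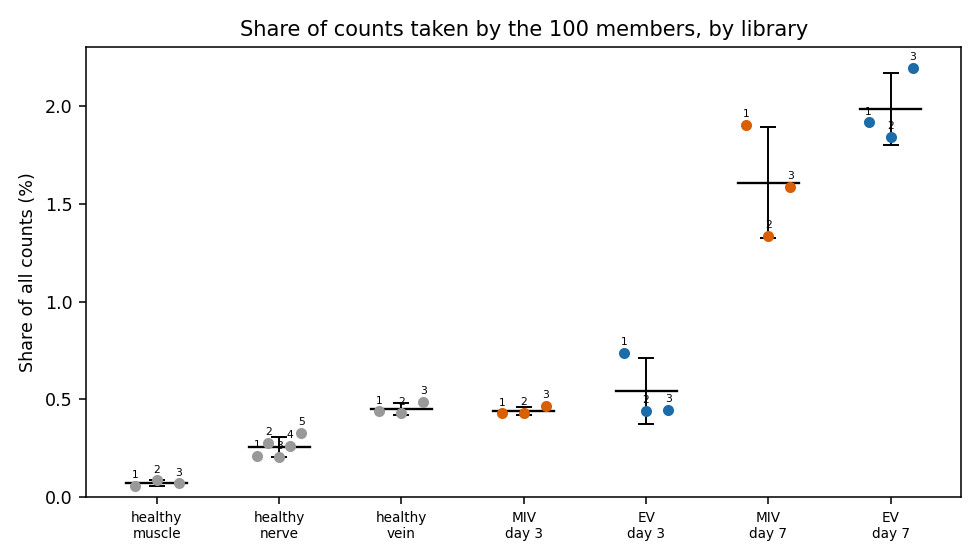
Share of all counts (%) taken by the 100 genes in each library, as numbered points by group, with the group mean (horizontal line) and SD (bars). The day 7 libraries sit between 1.33% and 2.19%, all above the day 3 and healthy libraries, whose highest is EV day 3 replicate 1 at 0.736%.

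A few genes made up most of this sum. The 3 most abundant held 48.7% of the set's day 7 CPM and the 10 most abundant held 70.0%. The mean day 7 level over both series was at least 1000 CPM for 3 genes, 100 to 1000 CPM for 23, 10 to 100 CPM for 64 and under 10 CPM for 10, with a median of 34.6 CPM. Without the 3 most abundant genes the summed level was still higher on day 7 than before. On day 3 it averaged 1830.4 ± 225 CPM in the MIV nerves and 2133 ± 753 CPM in the EV nerves. On day 7 it averaged 8543 ± 619 CPM in the MIV nerves and 9863 ± 1908 CPM in the EV nerves (SD over 3 libraries per group).

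The most abundant gene was ENSRNOG00000016695. It stood at 282, 421, 282, 408 and 612 CPM in the 5 healthy nerve libraries, at 40.8, 95.1 and 56.8 CPM in muscle and at 512, 628 and 654 CPM in vein. On day 3 it was at 432, 454 and 642 CPM in MIV, and at 1353, 544 and 712 CPM in EV. On day 7 it reached 3251, 1900.2 and 2962 CPM in MIV, and 3899.6, 3121 and 4545 CPM in EV. All day 7 libraries lay above all others, MIV day 3 lay within the range of healthy nerve and vein, and EV day 3 replicates 1 and 3 lay above it. The next gene by level, ENSRNOG00000001254, was at 3517, 1999 and 2070.3 CPM in MIV and at 2814, 3635 and 2412 CPM in EV on day 7. Its day 3 values ran from 966 to 1079.85 CPM in MIV and from 967 to 1319 CPM in EV, overlapping with the 909 to 986 CPM of healthy vein.

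The size of the difference between day 7 and day 3 varied widely among the genes. The ratio of the mean levels had a median of 4.53 in MIV (quartiles 3.10 and 7.88) and of 4.16 in EV (quartiles 2.77 and 8.45), and reached 81.7 and 93.5. It was at least 4 for 58 genes in MIV and 51 in EV, and for 40 of these in both series. At 10 or more the numbers were 23 in MIV, 20 in EV and 17 in both. Another 31 genes stayed under 4 in both series. The ratio was larger in MIV for 53 genes and larger in EV for the other 47. Over the highest healthy mean, the day 7 level had a median ratio of 4.43 in MIV and 4.97 in EV.

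**Figure D2:**
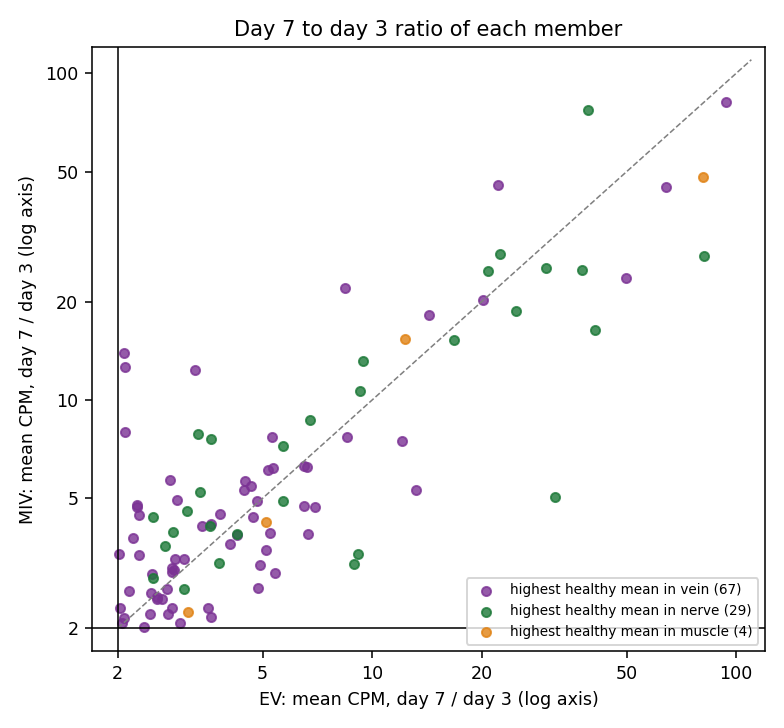
Ratio of mean CPM on day 7 to mean CPM on day 3 for each of the 100 genes, in EV (x axis) and MIV (y axis), on log axes, coloured by the healthy tissue with the highest mean. Solid lines mark the rule's limit of 2 and the dashed line equal ratios. Points lie on both sides of the dashed line, and ratios reach 93.5 in EV and 81.7 in MIV.

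The rule's limits cut through a continuous range. Just inside, one gene had an EV day 7 mean 2.01 times its highest healthy mean, one an EV day 7 mean 2.02 times its day 3 mean, and one an MIV day 7 mean 2.02 times its day 3 mean. Just outside were a gene with an EV day 7 mean of 4.99 CPM, one with an MIV day 7 mean 1.99 times its highest healthy mean, and one with an MIV day 7 mean 1.94 times its day 3 mean. With a limit of 1.5 times in place of 2 the rule would give 197 genes, and with 3 times it would give 40.

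The healthy tissue that came nearest to the day 7 level was most often the vein. The highest healthy mean was in vein for 67 genes, in nerve for 29 and in muscle for 4, and muscle had the lowest healthy mean for 80. The top muscle genes took 58.6% to 59.5% of the counts in healthy muscle, against 8.09% to 9.93% in nerve and vein. This lowers the CPM of all other genes in muscle. The shares of all genes with these orders of tissues were not computed. A mean above 1 CPM was found for 80 genes in vein, 76 in nerve and 49 in muscle, whereas 15 genes were under 1 CPM in every healthy tissue. Most of the genes were thus above 1 CPM in healthy vein, and most in healthy nerve, while 15 were nearly absent from all 3 tissues. The shares of all genes above or under 1 CPM were not computed, so these counts only describe the set.

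The rule compares group means and does not ask that every library be high. Every EV day 7 library was above every EV day 3 library for 75 genes, and every MIV day 7 library above every MIV day 3 library for 59. Among all 11847 genes with a day 7 mean of at least 5 CPM in either series, the same was true of 24.3% in EV and 12.4% in MIV. Above every healthy nerve library lay every MIV day 7 library for 77 genes, and every EV day 7 library for 86, where the shares among the 11847 genes were 28.6% and 37.9%. In both series, 37 genes had every day 7 library above every day 3 library of the same series and above every healthy library. They are called separated here. The same was true of 0.636% of the 10851 genes at the day 7 minimum in both series. The rule used these contrasts, so the high counts are a description of the set.

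The 37 separated genes carried most of the set's RNA on day 7. The 3 most abundant genes, which alone held 48.7% of the set's day 7 CPM, are among the 37. The summed level of the 37 ran from 8004 to 14510 CPM in the MIV day 7 libraries and from 13498 to 14279 CPM in the EV day 7 libraries. It was not computed without those 3. The other 63 genes summed to 4524 to 5338 CPM in MIV and 4637 to 7642 CPM in EV on day 7. Of the 20 genes with the highest day 7 level, 10 were separated. Of the 17 genes with a ratio of at least 10 in both series, 7 were. The separated genes had a median coefficient of variation among day 7 replicates of 47.5% in MIV and 18.5% in EV, against 80.2% and 54.9% in the other 63.

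Replicates differed more in these genes than in most others. The median coefficient of variation over the 100 genes was 68.8% in MIV day 7 and 33.1% in EV day 7, whereas over all genes at the day 7 minimum it was 22.5% and 13.5%. The difference was also present in groups whose level played only a limiting part in the rule, at 33.0% against 15.2% in MIV day 3, 44.4% against 15.7% in EV day 3 and 39.3% against 12.3% in healthy nerve. These medians were not tested, and the genes were not matched by level.

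**Figure D3:**
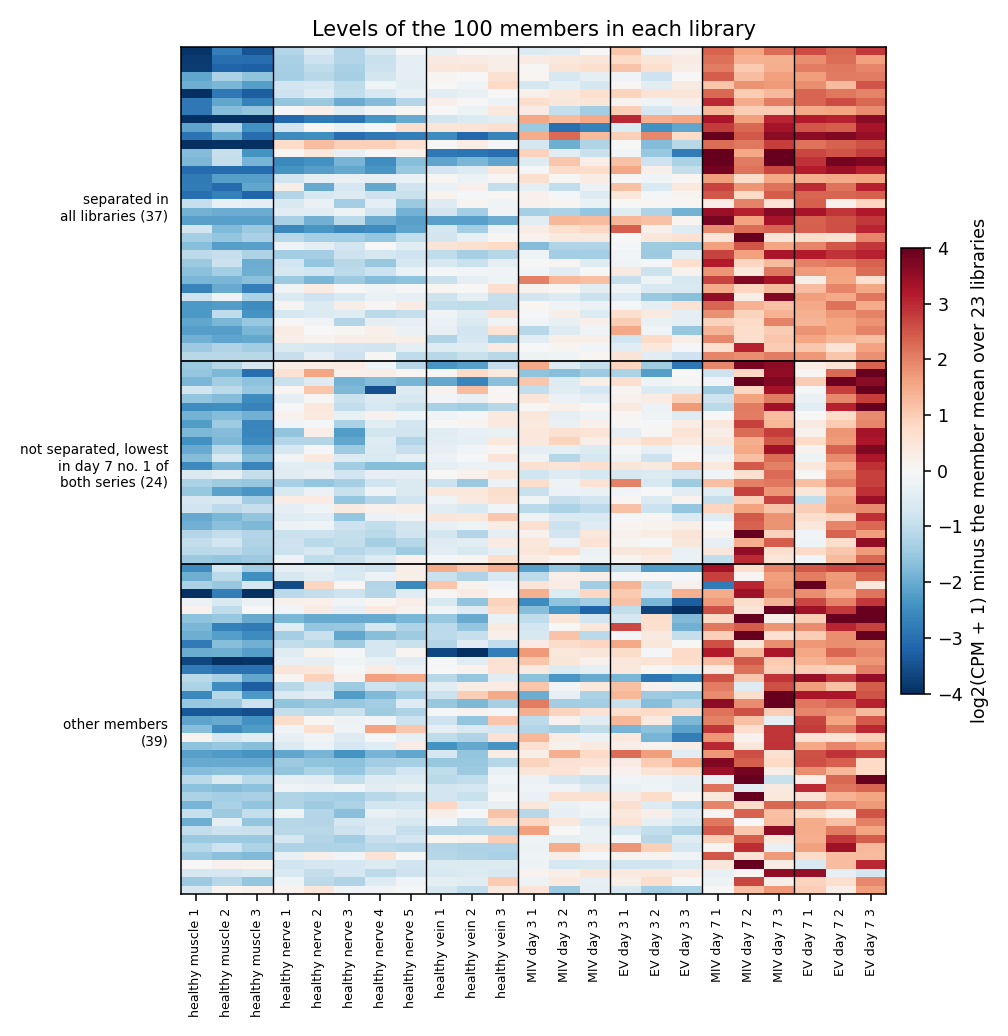
Levels of the 100 genes (rows) in the 23 libraries (columns), as log2(CPM + 1) minus the gene's mean over all libraries. The upper block holds the 37 genes with every day 7 library above every day 3 library of its series and every healthy library. The middle block holds 24 further genes that were lowest in replicate 1 of both day 7 groups, and the lower block the other 39. The middle block is pale in replicate 1 of both day 7 groups, and single dark cells mark genes carried by 1 day 7 library.

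For some genes a single library made the day 7 mean, a pattern looked for after the values had been seen. In MIV, 25 genes had more than 66.7% of their summed day 7 CPM in 1 library, where 4.15% of all genes at the day 7 minimum did. The library was replicate 2 for 13 of them, replicate 3 for 10 and replicate 1 for 2. In EV it was 18 genes, where 0.783% of all genes did, and the library was replicate 3 for 15. The pattern was present in at least 1 series for 31 genes and in both for 12. The rule asks for a high mean of 3 day 7 libraries, which favours genes that 1 high library lifts past its limits. The counts above those of all genes therefore describe the set.

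Both genes with the largest day 7 to day 3 ratios, ranked by the smaller of their ratios in MIV and EV, were uneven between day 7 libraries. The first was ENSRNOG00000049829. It was at 0.984, 4.70 and 1.39 CPM in MIV and at 1.52, 5.57 and 0.203 CPM in EV on day 3, and between 0 and 2.38 CPM in all healthy libraries. On day 7 it stood at 5.87, 569 and 3.68 CPM in MIV, and at 7.14, 219 and 456 CPM in EV. MIV replicate 2 and EV replicates 2 and 3 were high, and the other day 7 libraries were between 3.68 and 7.14 CPM, close to the highest day 3 value of 5.57 CPM.

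ENSRNOG00000022009, the next by this rank, was at 1.39, 31.3 and 1.15 CPM in MIV and at 0.146, 3.14 and 13.1 CPM in EV on day 7. In healthy muscle, its highest healthy tissue, it had 0.748, 0.963 and 0.924 CPM. The EV replicate 1 value rests on 2 counts and lies below all muscle libraries. ENSRNOG00000003666, named after its values were seen, was the most uneven in MIV together with ENSRNOG00000049829. On day 7 it had 0.726, 32.4 and 0.153 CPM in MIV, from 11, 445 and 2 counts, and 1.53, 9.33 and 63.0 CPM in EV. Its day 3 values were at most 0.811 CPM in MIV and 0.960 CPM in EV, and 2 of the 3 MIV day 7 libraries lay below the highest MIV day 3 value.

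Another group of genes was low in the first replicate of both series. On day 7, replicate 1 was the lowest MIV library for 36 genes and the lowest EV library for 53, where the shares of all genes at the minimum were 16.5% and 39.6%. It was the lowest in both series for 26 genes, against 9.03% of all genes. This grouping was made from the values, so the sums show only its size. The 26 genes summed to 262, 1224 and 1317 CPM in MIV on day 7, and to 260, 858 and 2021 CPM in EV. Replicate 1 of both series thus lay near the day 3 sums, which ran from 175 to 266 CPM in MIV and from 174 to 266 CPM in EV, and near the 154 to 216 CPM of healthy vein. Healthy vein had the highest healthy mean for 21 of the 26, and healthy nerve for 5.

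MIV replicate 2 was the lowest of the MIV day 7 libraries for 47 genes, close to the 42.4% of all genes at the minimum. These 47 were picked for that low value, and they summed to 17637, 7961 and 13114 CPM in MIV replicates 1, 2 and 3, and to 15634 to 16611 CPM in the EV replicates. The highest healthy mean was in vein for 25 of them and in nerve for 20. The top muscle genes took 10.5% of the counts in this replicate, the lowest share of the MIV day 7 libraries, and the part of that share in the low values was not tested.

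**Figure D4:**
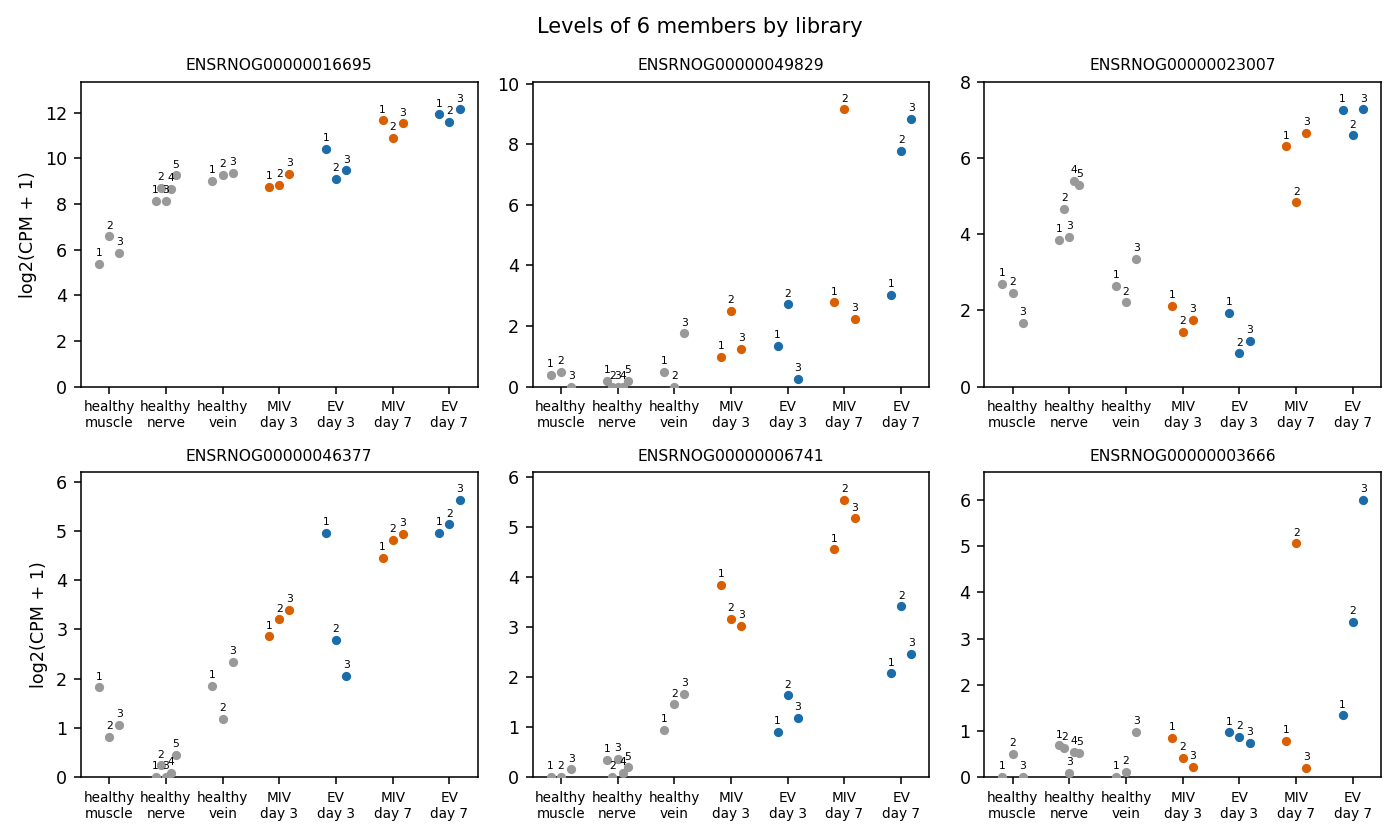
Level of 6 genes in every library, as log2(CPM + 1), with replicate numbers beside the points (grey healthy tissues, orange MIV, blue EV). ENSRNOG00000016695 is high in all day 7 libraries, ENSRNOG00000049829 and ENSRNOG00000003666 are high in some of them, ENSRNOG00000023007 lies below healthy nerve on day 3, ENSRNOG00000046377 lies above it, and ENSRNOG00000006741 is higher in MIV than in EV on both days.

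Whether the muscle-in-vein series and the EV series differed in these genes was compared on each day. The rule did not use this contrast, but it set the same limits for both series. Genes high on day 7 in only 1 series were left out, so the counts describe the set. On day 7 none of the 100 genes was called higher or lower in MIV by edgeR's quasi-likelihood test on the 12 repaired nerves with Benjamini-Hochberg adjustment, where 0.00% of the 15036 genes tested were called in either direction. All 100 passed the filter on low counts. At an unadjusted p under 0.05, 4 of the 100 genes were higher and 1 lower in MIV, against 9.82% and 6.90% of all genes. The log2 fold change of MIV over EV had a median of -0.05 over the 100 genes (quartiles -0.38 and 0.44) and of 0.01 over all genes, and was positive for 48. It ranged from -1.41 to 2.78 with a median standard error of 0.65 per gene. No difference of any size was called, so the lack of calls does not show that the levels were equal. The replicate number was also used as a block, which takes same-numbered day 7 libraries as pairs. That pairing was inferred from these same counts and not from a label. With the block, 2 were higher and 5 lower at an unadjusted p under 0.05, against 7.18% and 7.48% of all genes. The median was then -0.17 with 37 positive. The median was 0.004 with scaling factors taken without the top muscle genes, and 0.28 without EV day 7 replicate 3.

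Few genes separated the series on day 7. Every MIV library lay above every EV library for 2 genes, where 6.66% of the 11847 genes did so. Every EV library lay above every MIV library for 4 genes, where 19.5% did. No test was made of these shares, and the rule's limits on both series shape the counts. They rest on CPM by library total, without the scaling factors of the tests. The top muscle genes took 10.5% to 22.95% of the counts in the MIV libraries, against 10.5% to 11.9% in EV. A larger muscle share lowers the CPM of other genes, and its part in these counts was not tested.

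The smallest adjusted p on day 7 belonged to ENSRNOG00000006741. It was at 22.4, 45.4 and 35.0 CPM in MIV on day 7, and at 3.21, 9.64 and 4.52 CPM in EV. Its lowest MIV library was above its highest EV library by a factor of more than 2. The means were 34.3 ± 11.5 CPM in MIV and 5.79 ± 3.40 CPM in the EV nerves (SD over 3 libraries per group), a log2 fold change of 2.70 ± 0.48 (SE) that did not pass (edgeR adjusted p = 0.0685, unadjusted p = 0.000173). With the replicate block it was called (log2 fold change 2.78, edgeR adjusted p = 0.0401), as 0.479% of all genes were in that direction. The pairs of that block were inferred from these same counts. DESeq2 also called the gene (adjusted p = 2.02e-06, 4.25% of all genes higher). So did edgeR over all 23 libraries (adjusted p = 0.00499, 5.18%) and edgeR without MIV day 7 replicate 2 (adjusted p = 0.0198, 4.21%).

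The same gene was already apart on day 3. It had 13.4, 7.94 and 7.13 CPM in MIV and 0.880, 2.11 and 1.28 CPM in EV, again without overlap. The day 3 log2 fold change was 2.73 ± 0.50 (SE, edgeR adjusted p = 0.150). In the 5 healthy nerve libraries it lay between 0 and 0.294 CPM, in muscle between 0 and 0.116 CPM and in vein between 0.930 and 2.19 CPM. The EV values of day 3 thus overlapped with healthy vein, and the MIV values did not.

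The second gene without overlap in this direction, ENSRNOG00000047783, differed little in size, with 7.39, 6.85 and 7.90 CPM in MIV and 6.12, 3.61 and 6.68 CPM in EV on day 7 (log2 fold change 0.55 ± 0.57 SE, edgeR adjusted p = 0.624). In the other direction ENSRNOG00000002730 had 269.9, 133 and 214 CPM in MIV and 528, 327 and 597 CPM in EV (log2 fold change -1.11 ± 0.87 SE, edgeR adjusted p = 0.517). Of the settings tried, ENSRNOG00000041744 was called on day 7 only without MIV day 7 replicate 2 (edgeR adjusted p = 0.00490, against 0.374 with it). It stood at 56.2, 8.74 and 52.4 CPM in MIV and 19.5, 26.9 and 21.4 CPM in EV, so 2 MIV libraries were above and 1 below all EV libraries.

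On day 3 edgeR again called none of the 100 genes between MIV and EV, with 0.00% of all genes called in either direction. At an unadjusted p under 0.05, 2 were higher and 2 lower in MIV, against 3.71% and 1.44% of all genes. The median log2 fold change was -0.11 over the set and -0.02 over all genes, with 36 positive. Every MIV day 3 library lay above every EV day 3 library for 4 genes, against 7.23% of the 11847 genes, and the reverse was true of 1 gene, against 3.73%. Without EV day 3 replicate 1 the median was 0.06 and 57 were positive, and at an unadjusted p under 0.05, 10 were higher and 0 lower, against 3.53% and 0.964% of all genes. That library was the highest of its group for 55 genes, against 37.9% of all genes. DESeq2 called 2 genes higher on day 3, where it called 1.57% of all genes. They were ENSRNOG00000006741 and ENSRNOG00000004229. The second had 6.14, 1.26 and 0.928 CPM in MIV and 0.480, 0.151 and 0 CPM in EV (DESeq2 adjusted p = 0.0133, edgeR adjusted p = 0.454). Fitted over all 23 libraries, edgeR called ENSRNOG00000006741 on day 3 (adjusted p = 0.0184), where it called 0.965% of all genes higher.

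The difference between days was also compared between the series, as the MIV change minus the EV change. The rule asked for a day 7 mean of at least 2 times the day 3 mean in each series, which favours genes that changed alike, so the counts here describe the set. None of the 100 genes was called (edgeR, 0.00% of all genes called either way), and none reached an unadjusted p under 0.05, where 3.15% of all genes were higher and 2.15% lower. DESeq2 called none of them, where it called 0.0532% of all genes higher and 0.0599% lower. The median of the difference was 0.17 on the log2 scale over the set and 0.03 over all genes, and it was -0.06 with the replicate number as a block and -0.17 without EV day 3 replicate 1. Its median standard error was 0.94, so a large difference in a single gene could pass unseen.

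Where the genes stood on day 3 relative to healthy nerve was not fixed by the rule but is shaped by it, since a gene had to reach at least 2 times its day 3 mean and 2 times its nerve mean on day 7. The counts therefore describe the set and are no result about it. Of the 100 genes, 37 were higher and 10 lower in MIV on day 3 (edgeR over all 23 libraries, adjusted p under 0.05), where 30.9% of the 15954 genes tested were higher and 30.6% lower. In EV, 35 were higher and 7 lower, where 30.0% of all genes were higher and 30.7% lower. The share of higher calls was near that of all genes in both series. The remaining 53 genes in MIV and 58 in EV were not called. The 2 comparisons share the healthy nerve libraries, so they are given side by side and not as support for each other.

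The median log2 fold change over healthy nerve was 0.67 in MIV and 0.81 in EV on day 3, and 0.01 and -0.01 over all genes. Single libraries moved these values. Without MIV day 3 replicate 1, 24 genes were higher and 9 lower in MIV, with a median of 0.43, where 27.3% and 28.1% of all genes were called. Without EV day 3 replicate 1, 27 were higher and 15 lower in EV, with a median of 0.50, where 27.7% and 28.9% of all genes were called.

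**Figure D5:**
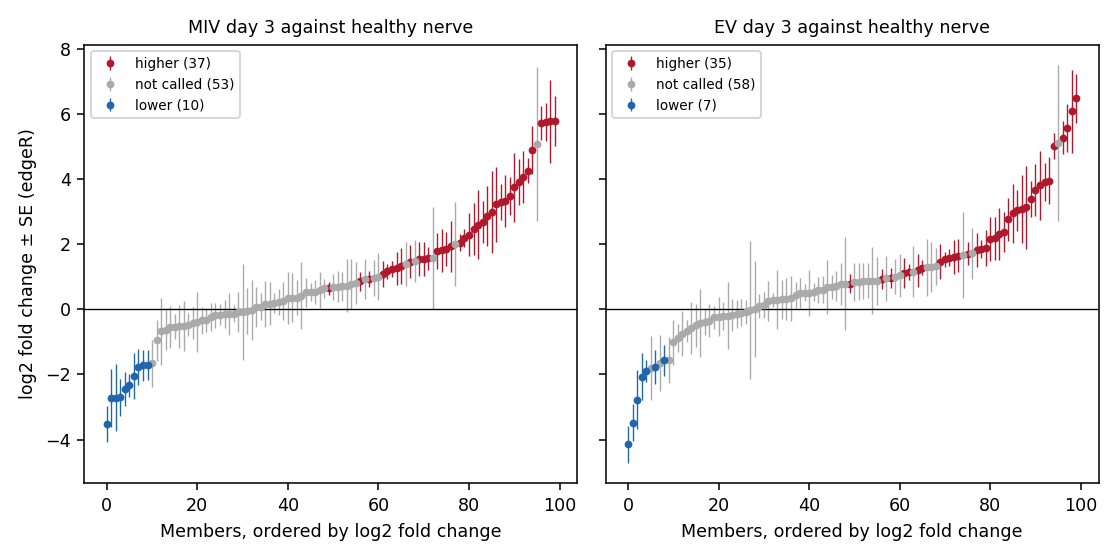
Log2 fold change of day 3 over healthy nerve for the 100 genes, in rank order within each panel (MIV left, EV right), with the standard error from edgeR as bars. In MIV 37 genes are called higher and 10 lower, and in EV 35 higher and 7 lower.

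The genes called on day 3 divided by healthy tissue. Of those higher than nerve, 29 of 37 in MIV and 31 of 35 in EV had their highest healthy mean in vein, and 3 in each series had it in muscle. Of those lower than nerve, 6 of 10 in MIV and 4 of 7 in EV had it in nerve, and the rest in vein. Since nerve is one side of the comparison, genes with their highest healthy mean in nerve start from a higher level there. The day 3 mean was above every healthy mean for 52 genes in MIV and 60 in EV, and below every healthy mean for 8 and 6.

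The highest genes over nerve on day 3 were nearly absent from healthy nerve. ENSRNOG00000046377 had 6.25, 8.21 and 9.51 CPM in MIV and 30.2, 5.88 and 3.18 CPM in EV on day 3, against 0, 0.183, 0, 0.0668 and 0.364 CPM in healthy nerve. All day 3 libraries of both series lay above all nerve libraries, and EV replicate 1 was far above the rest. The log2 fold change over nerve was 5.80 ± 0.76 in MIV (SE, edgeR adjusted p = 2.81e-06) and 6.49 ± 0.76 in EV (SE, edgeR adjusted p = 6.90e-07), and 4.99 in EV without replicate 1.

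ENSRNOG00000009907 had 1.04, 5.63 and 2.26 CPM in MIV and 7.12, 3.62 and 0.473 CPM in EV on day 3. Healthy nerve held only 3 counts of it over 5 libraries. The day 3 level was 70.1 times that of nerve in MIV (95% interval 23.5 to 344, exact binomial, counting error only) and 86.9 times in EV (95% interval 29.2 to 426). It was called higher in both series (edgeR adjusted p = 0.000709 in MIV and 0.000435 in EV). On day 7 it stood at 1.58, 17.6 and 0.920 CPM in MIV and 6.41, 23.7 and 4.78 CPM in EV, so that replicate 2 was the highest in both series and the other libraries overlapped with day 3.

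The genes called lower than nerve on day 3 had the larger day 7 to day 3 ratios. For the 10 called lower in MIV the median day 7 to day 3 ratio in MIV was 18.4, against 3.47 for the 37 called higher. For the 7 called lower in EV the median ratio in EV was 22.1, against 2.83 for the 35 called higher. A low day 3 level makes the ratio large by construction, so the medians describe a course and are no separate evidence. These genes lay under healthy nerve on day 3 and over it on day 7.

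ENSRNOG00000023007 shows this course. It was at 13.5, 24.5, 14.3, 41.3 and 38.3 CPM in healthy nerve, at 3.36, 1.72 and 2.38 CPM in MIV and 2.80, 0.829 and 1.28 CPM in EV on day 3, and at 77.9, 27.5 and 99.5 CPM in MIV and 152, 95.5 and 154 CPM in EV on day 7. Every day 3 library was below every nerve library, every EV day 7 library was above every nerve library, and MIV day 7 replicate 2 lay among the nerve libraries. The log2 fold change of day 3 over nerve was -3.53 ± 0.55 in MIV (SE, edgeR adjusted p = 1.78e-05) and -4.15 ± 0.58 in EV (SE, edgeR adjusted p = 5.56e-06).

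ENSRNOG00000025889 took the same course, with 2.66, 2.18 and 3.01 CPM in MIV and 1.28, 1.66 and 0.879 CPM in EV on day 3, against 6.32 to 24.2 CPM in the 5 nerve libraries. On day 7 it had 58.4, 11.9 and 58.1 CPM in MIV and 55.7, 35.4 and 64.9 CPM in EV. MIV replicate 2 was again the low library of day 7. The log2 fold change of EV day 3 over nerve was -3.48 ± 0.58 (SE, edgeR adjusted p = 3.81e-05).

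ENSRNOG00000029911 was carried by all 3 healthy tissues, at 24.6 to 40.4 CPM in nerve, 14.6 to 35.0 CPM in muscle and 21.1 to 54.8 CPM in vein. On day 3 it had 8.86, 5.16 and 2.44 CPM in MIV and 15.04, 1.43 and 0 CPM in EV, and on day 7 it had 186, 44.9 and 508 CPM in MIV and 332, 228 and 495 CPM in EV. No day 3 library reached the nerve range, and every day 7 library was above the nerve range. The log2 fold change of MIV day 3 over nerve was -2.73 ± 0.90 (SE, edgeR adjusted p = 0.0135), and it was -2.36 with an edgeR adjusted p of 0.0631 without MIV day 3 replicate 3.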

How the data were processed

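Per the labels' protocols, libraries were made from 350 ng of TRIzol-extracted RNA after poly-T capture, with a kit that does not mark strand. CASAVA and HISAT2 were used, per the submitters' processing notes, without versions. For the counting tool, genome build, annotation and handling of reads shared by paralogs the entry is: not given in the sources used here. Counts of near-identical or overlapping antisense genes are therefore uncertain. The values are raw read counts per Ensembl identifier, in 1 table the authors deposited, whose 23 columns all matched a library title.

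CPM was computed on column totals and averaged per group. EdgeR 4.0.16 in R 4.3.3 tested the counts by its robust quasi-likelihood test, after filterByExpr (minimum count 10, minimum total 15) and TMM scaling, with group as the factor and p-values adjusted over all genes by Benjamini-Hochberg at a threshold of 0.05. MIV against EV used the 12 repaired libraries and day 3 against healthy nerve used all 23. The procedure was tested on simulated data, and DESeq2 1.42.0 was an alternative. None of the 47357 entries of the reference gene table (GRCr8) carries an Ensembl identifier, so 0 identifiers matched a symbol, 0 of 28 gene lists had a measured member, and no promoter sequence could be joined.

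The genes, lists and tests were chosen with earlier results of these data known. Identifiers were named, up to 2 per direction, by day 7 level, by the smaller day 7 to day 3 ratio, and by fold change among genes called. Those named for library patterns or for calls under an alternative were chosen after their values were seen. The replicate numbers come from the titles. On day 7 same-numbered MIV and EV libraries deviated together across genes (correlations of 0.22, 0.20 and 0.18), so the numbers were taken to pair the libraries on that day. Over the 100 genes alone the correlations were 0.52, 0.12 and 0.07. The pairing thus rests on these same counts and not on a label. On day 3 same-numbered libraries did not all deviate together across genes (-0.09, 0.24 and -0.01). Library totals of 12504035 to 17314324 counts set the precision of low genes.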

Additional observations from a re-analysis of the deposited data

How the results depend on the processing

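With a limit of 1.5 times, 3 times, a minimum of 1 CPM, or every library separated, the rule gave 197, 40, 159 and 37 genes. Leaving out 1 library at a time it gave 76 (without EV day 7 replicate 3) to 112 genes, and kept 73 to 100 of the 100. For MIV against EV on day 7, edgeR over all 23 libraries, DESeq2 and the replicate block each called 1 gene in place of 0, and leaving out 1 library gave 0 to 2 calls, with medians of -0.14 to 0.28. The median was -0.17 under the block. On day 3, edgeR over all 23 libraries called 1 and DESeq2 2 in place of 0, and leaving out 1 library gave 0 calls and medians of -0.23 to 0.06. For the difference of the changes, leaving out 1 library gave 0 calls and medians of -0.17 to 0.54. Of the genes called over healthy nerve on day 3, leaving out 1 library gave 33 to 48 in MIV (median 0.43 to 0.83, the lowest without MIV day 3 replicate 1) and 36 to 42 in EV (median 0.50 to 0.87). In the fits against nerve the replicate block joined all libraries of the same number. Same-numbered day 3 and nerve libraries did not deviate together across genes (correlations of -0.14 to 0.12), so this block checks no pairing. It moved no count of calls against nerve by more than 1.5 times. Under the block no call named here changed other than that of ENSRNOG00000006741 on day 7 (edgeR adjusted p = 0.0401). On day 3, where the numbers do not pair the libraries, the block called none between MIV and EV. No named gene reversed its direction under any setting run. In 186 gene results the other settings kept direction and side of the threshold. In 158 summary results a count stayed within 1.5 times, or a median moved by less than the spread between library medians. That spread was 0.18 to 0.56 on the log2 scale, so such a median could change sign. The MIV against EV median on day 7 did so, from -0.05 to 0.28 without EV day 7 replicate 3.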
